A study of Rattus norvegicus with 4 samples.

Results

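The insulin-like growth factor (IGF) axis was described in 4 mammary cancers of female Sprague-Dawley rats through 10 genes: the ligands Igf1 and Igf2, the receptors Igf1r and Igf2r, and the binding proteins Igfbp2 to Igfbp7. They were chosen by function, but with earlier results of these data known. Every probe set that the platform annotation assigns to just 1 of them was used. This gave 23 probe sets for 10 of the 14217 genes named on the arrays. The rats had been exposed once, over the whole body, to 0.5 Gy of carbon ions (290 MeV/u, spread-out Bragg peak of 6 cm) when 7 weeks old, and from 9 weeks of age they ate an AIN-76A diet with 23.5% corn oil. They had been purchased at 5 weeks of age, and their age when the tumours were taken is not given here. Each cancer was hybridised to 1 oligonucleotide array, and all 4 form 1 group that shares strain, dose and diet. Whether each tumour came from a different rat is not in the labels. No unirradiated tumour and no normal gland is analysed here, so the values compare individual tumours and no effect of irradiation or diet. With 1 array per tumour there is no test of a difference between tumours, and no difference below has a replicate check.

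IGF-I and IGF-II are small secreted proteins related to insulin. They signal through the IGF-I receptor, a tyrosine kinase that activates the phosphatidylinositol 3-kinase and AKT pathway, while the IGF-II receptor binds IGF-II and carries it to lysosomes without such signalling. The binding proteins hold the ligands in serum and tissue and either limit or prolong their action. In the mammary gland, growth hormone induces IGF-I in the stroma, IGF-I drives the outgrowth of ducts, and Igfbp5 rises when the gland involutes after lactation.

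Of the 10 genes, 1 ligand and 3 binding proteins, spanned at least 2-fold across the 4 tumours. They were Igf2, Igfbp3, Igfbp6 and Igfbp7. For these genes the RefSeq sequence of the 250 bases before each annotated transcription start is shown, because the signal of their transcripts differed between the tumours. The arrays hold no measurement on the promoters themselves. RefSeq windows were found for 10 of 10 genes, and Igf2 had 2 starts. Capitals mark a GC box (GGGCGG, read on both strands).
Igf2 first start (GRCr8 chr1:207253981-207254230, minus strand): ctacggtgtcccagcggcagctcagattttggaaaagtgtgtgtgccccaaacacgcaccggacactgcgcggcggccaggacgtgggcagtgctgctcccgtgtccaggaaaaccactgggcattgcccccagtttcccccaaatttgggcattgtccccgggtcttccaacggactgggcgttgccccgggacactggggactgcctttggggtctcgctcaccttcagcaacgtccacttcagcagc
Igf2 second start (GRCr8 chr1:207250476-207250725, minus strand): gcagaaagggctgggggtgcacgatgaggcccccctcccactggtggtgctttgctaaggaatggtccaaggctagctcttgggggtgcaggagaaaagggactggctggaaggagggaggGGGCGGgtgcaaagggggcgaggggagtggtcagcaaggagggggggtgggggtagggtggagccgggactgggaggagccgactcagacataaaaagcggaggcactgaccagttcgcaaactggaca
Igfbp3 (GRCr8 chr14:86277945-86278194, minus strand): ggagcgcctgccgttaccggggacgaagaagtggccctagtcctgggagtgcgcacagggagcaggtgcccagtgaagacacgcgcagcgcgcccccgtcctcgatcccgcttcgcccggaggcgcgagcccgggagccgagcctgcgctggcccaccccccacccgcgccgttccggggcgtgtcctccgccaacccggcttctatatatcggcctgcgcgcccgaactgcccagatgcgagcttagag
Igfbp6 (GRCr8 chr7:135154669-135154918, plus strand): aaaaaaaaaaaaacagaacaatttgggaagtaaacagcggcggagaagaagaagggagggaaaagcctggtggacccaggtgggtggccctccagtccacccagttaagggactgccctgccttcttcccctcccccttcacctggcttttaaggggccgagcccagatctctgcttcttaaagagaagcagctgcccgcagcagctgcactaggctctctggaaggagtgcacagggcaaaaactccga
Igfbp7 (GRCr8 chr14:31091486-31091735, plus strand): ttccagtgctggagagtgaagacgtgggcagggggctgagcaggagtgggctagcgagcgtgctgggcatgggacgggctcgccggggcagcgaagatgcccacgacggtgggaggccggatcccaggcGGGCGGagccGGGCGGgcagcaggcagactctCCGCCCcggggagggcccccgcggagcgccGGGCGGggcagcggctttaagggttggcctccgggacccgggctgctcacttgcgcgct
The Igfbp7 window held 4 GC boxes and that of the second Igf2 start 1, whereas the other 3 windows held none. A GC box occurred in 30.5% of 33465 such windows in the genome table. Neither a TATA box (TATAAA, both strands) nor a CCAAT box (CCAAT, both strands) was present in the 5 windows, and those motifs occurred in 12.9% and 34.0% of all windows. The share of G and C was 74.4% in the Igfbp7 window, 71.6% for Igfbp3, 62.4% and 63.6% for the 2 Igf2 windows and 54.8% for Igfbp6, against a median of 51.2%.

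All values below are log2(signal + 16) with array medians aligned, unless the deposited signal is named. A step of 1 equals 2-fold for bright probe sets, and changes of dim ones are understated. The middle of the probe-set means over the whole array, 7.81 log2, served as the level above which a probe set was taken as expressed. Of the 23 probe sets, 19 had a mean above it, and each of the 10 genes had at least 1 such probe set. Where a gene had several, its brightest probe set represents it. Levels of different genes are not compared, because probes differ in response.

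The axis varied more between tumours than the middle of the array, and unevenly. The median range between the highest and the lowest tumour was 0.78 log2 over the 10 genes and 0.51 over 9403 genes above the level, and the median standard deviation (SD) was 0.36 and 0.23. A 2-fold range was found in 4 of 10 genes of the axis and in 13.0% of all genes. A 4-fold range was found in 1 of 10, Igf2, and in 2.40% of all genes. By probe set, 8 of 19 had a 2-fold range against 12.9% of all, and 2 of 19 a 4-fold range against 2.12%. Without tumour 2 the genes with a 2-fold range were 2 of 10 and with a 4-fold range 0 of 10, and without tumour 1 or tumour 2 the probe sets with a 2-fold range were 5. The range of Igf1 exceeded that of 79.6% of all genes and the range of Igfbp4 that of 74.4%. For Igfbp2, Igf1r and Igf2r the shares were 40.4%, 19.6% and 11.3%.

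**Figure D1:**
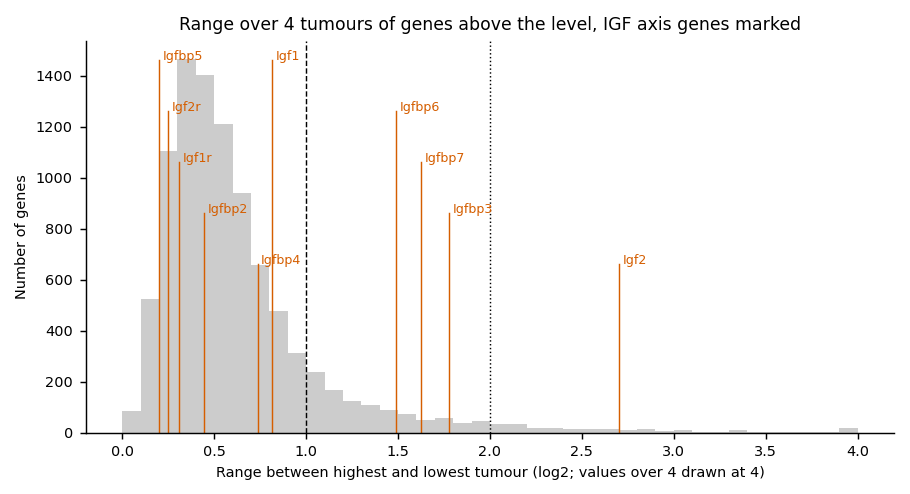
Histogram of the range between the highest and the lowest of the 4 tumours, in log2, for 9403 genes above the level. The vertical axis counts genes, the dashed and dotted lines mark 1 and 2 log2, and orange lines mark the 10 IGF axis genes by their brightest probe set. Igf2 stands furthest right at 2.70, Igfbp3, Igfbp7 and Igfbp6 lie between 1.49 and 1.78, and the other 6 genes lie between 0.20 and 0.82.

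Igf2, the fetal growth ligand, showed the widest range of the axis. The deposited signal of probe set 1367571_a_at was 1003 in tumour 1, 3241 in tumour 2, 480.3 in tumour 3 and 601 in tumour 4. On the log2 scale this is 9.93, 11.72, 9.02 and 9.22, a range of 2.70 and an SD of 1.23 (n = 4). Tumour 2 stood 1.79 above tumour 1, which was the next, and 2.33 above the mean of the other 3, while tumours 3 and 4 were close together. A larger range was found in 82 of the 9403 genes. Tumour 2 exceeded each other tumour by at least 1 log2 in 0.266% of all genes. Without tumour 2 the range of Igf2 was 0.91.

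The 3 further Igf2 probe sets did not carry this pattern. Their deposited signals lay between 4.57 and 22.2 in all 4 tumours (4.41 to 5.21 log2), and each was brighter than at most 8.37% of probe sets on the array. Probe set 1371206_a_at measured 4.92, 4.69, 5.03 and 5.21 in tumours 1 to 4 and was lowest in tumour 2. Probe set 1398322_at (4.72, 4.76, 4.94 and 4.60) was highest in tumour 3, and 1388252_at (4.62, 4.69, 4.42 and 4.41) was highest in tumour 2 by 0.08. The annotation derives the bright probe set from the RefSeq transcript record of Igf2 and the dim 3 from another rat record, and whether the dim sets can detect the main Igf2 transcript was not tested. The high value of tumour 2 therefore rests on 1 probe set.

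H19, the imprinted noncoding RNA gene next to Igf2 in the GRCr8 annotation, was also highest in tumour 2. It measured 9.10, 10.12, 8.94 and 8.82 in tumours 1 to 4, a range of 1.30, and tumour 2 exceeded the next tumour by 1.02. Both genes had the order of tumours 2 and 1 at the top, with tumours 3 and 4 below. Ins2, the insulin gene on the other side of Igf2, was under the level in all 4 tumours (5.00 to 6.36) and was lowest in tumour 2. Liver makes much circulating IGF, and of 5 liver markers none had a mean above the level. Their summed signal was 635 in tumour 2 against 361 to 491 elsewhere, a difference carried by Alb (albumin), at 8.36 in tumour 2 and 5.08 to 6.74 in the others. Apoa1 (4.20) and Serpina1 (6.94) were lowest in tumour 2. Adipocyte markers summed to 1960 in tumour 2 and to 1197 to 1311 in the others, and 4 of 8 were highest there. The mean of 6 of these 8 markers was under the level. Of the 2 above it, 1 was highest in tumour 2, against 32.1% of all genes above the level. The part of these cells in the Igf2 signal was not tested.

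Igf1, the growth hormone dependent ligand, was highest in tumour 1 on all 3 of its probe sets, by less than 2-fold. The brightest, 1388469_at, measured 9.44, 8.72, 8.83 and 8.63 in tumours 1 to 4 (range 0.82). The second, 1370333_a_at, measured 9.22, 8.61, 8.28 and 8.46 (range 0.94). The dimmest, 1382599_at, measured 7.27, 6.63, 6.70 and 6.32 (range 0.95). The difference of tumour 1 from the mean of the others was 0.72, 0.77 and 0.72 on these probe sets, whereas tumours 2 to 4 lay within 0.20 of each other on the brightest. From high to low their order was 3, 2 and 4 on the brightest and the dimmest probe set, and 2, 4 and 3 on the second. Without tumour 1 the ranges were 0.20, 0.33 and 0.39.

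**Figure D2:**
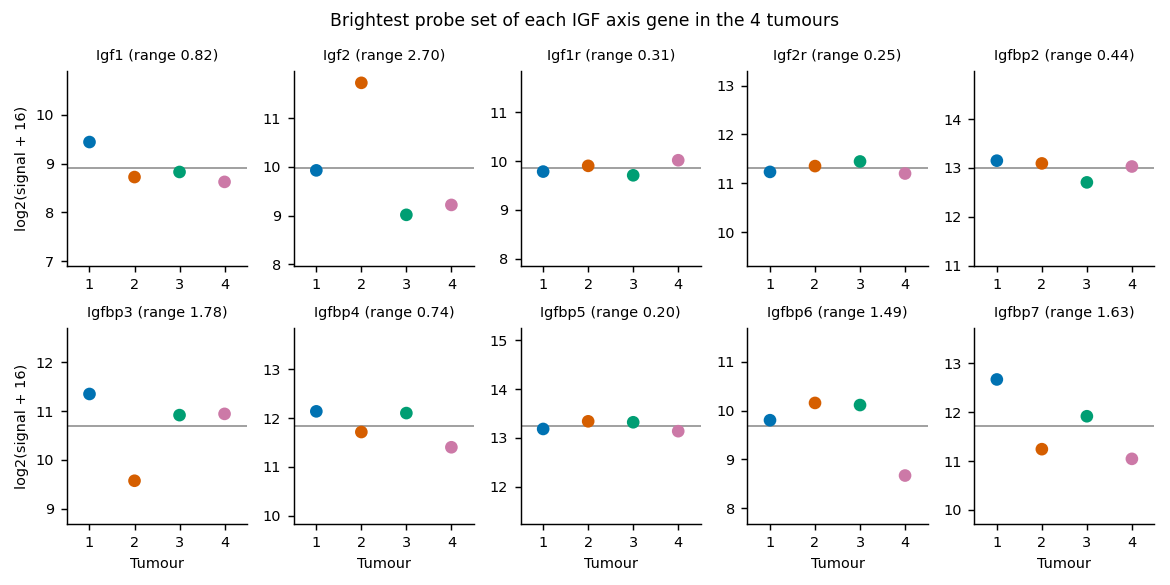
Level of the brightest probe set of each IGF axis gene, as log2(signal + 16), in tumours 1 to 4. Each point is 1 array, the grey line is the mean of the 4, and every panel spans 4 log2 so that spreads can be compared. Igf2 is highest in tumour 2 at 11.72, Igfbp3 is lowest there at 9.57, and Igfbp6 is lowest in tumour 4 at 8.67.

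The receptors were nearly level across the 4 cancers. Igf1r, which transmits the growth signal of both ligands, measured 9.79, 9.90, 9.71 and 10.02 on probe set 1392492_at (range 0.31) and 9.51, 9.43, 9.80 and 9.96 on 1368123_at (range 0.53). Both probe sets were highest in tumour 4, by 0.11 and 0.16. Igf2r, the clearing receptor for IGF-II, measured 11.23, 11.35, 11.45 and 11.20 on 1386872_at (range 0.25) and 11.07, 11.20, 11.47 and 11.20 on 1367636_at (range 0.40), highest in tumour 3 on both. The range of Igf1r was smaller than that of 7561 of the 9403 genes and the range of Igf2r smaller than that of 8341. The order of the other tumours depended on the scaling, and after quantile normalization tumour 2 was lowest on both Igf2r probe sets.

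Igfbp3, the main carrier of IGFs in serum, was low in tumour 2 on both probe sets. The deposited signal of 1386881_at was 2718, 719, 1838 and 2021 in tumours 1 to 4, or 11.35, 9.57, 10.92 and 10.94 log2, a range of 1.78 (SD 0.77, n = 4). The other probe set, 1367652_at, measured 10.83, 9.14, 10.20 and 10.42, a range of 1.69. The order of the tumours was the same on both, with tumour 1 at the top, and tumour 2 lay 1.34 and 1.07 under the next lowest. Tumour 2 was at least 1 log2 under each other tumour in 8 of 9403 genes (0.0851%), and Igfbp3 was 1 of them. Without tumour 2 the ranges were 0.43 and 0.63. The tumour with the highest Igf2 thus had the lowest Igfbp3, a relation that 4 tumours cannot test.

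Igfbp6, a binding protein that prefers IGF-II, was low in tumour 4. Probe set 1372168_s_at gave signals of 919, 1085, 1045 and 405 in tumours 1 to 4, or 9.80, 10.16, 10.11 and 8.67 log2 (range 1.49). Probe set 1387625_at gave 629, 763, 1018 and 224, or 9.27, 9.66, 10.08 and 7.86 log2 (range 2.21). Tumour 4 lay 1.13 and 1.41 under the next lowest, while the highest was tumour 2 on 1 probe set and tumour 3 on the other. Tumour 4 was at least 1 log2 under each other tumour in 0.638% of all genes. Without tumour 4 the ranges were 0.35 and 0.81.

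Igfbp7, a secreted relative that binds IGFs weakly and is abundant in vessels and stroma, was highest in tumour 1. Its 1 probe set, 1371357_at, gave signals of 6808, 2321, 3689 and 2168, or 12.67, 11.24, 11.92 and 11.04 log2 (range 1.63, SD 0.74, n = 4). Tumour 1 lay 1.27 over the average of the others, and without it the range was 0.87. Tumour 3 came second, and tumours 2 and 4 were within 0.20 of each other.

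Igfbp5, the binding protein linked to involution, gave different ranges on its 5 probe sets. The brightest, 1370960_at, was flat at 13.18, 13.34, 13.32 and 13.14 (range 0.20), with deposited signals of 9295 to 9973. The dimmest, 1387347_at, measured 11.99, 11.08, 10.24 and 10.73 (range 1.75), and 1397830_at measured 12.47, 11.96, 11.05 and 11.55 (range 1.41). The ranges of 1396152_s_at and 1387348_at were 0.95 and 0.48. Of the 5 probe sets, 4 had 1 order of tumours, with tumour 1 highest, then 2, 4 and 3, and the brightest was the exception. That probe set lies above 99.6% of all probe sets, and the highest value of any probe set was 13.57 to 14.19 log2 depending on the array. Arrays lose contrast near their upper end; its part in the flat values was not tested. Without tumour 1 the ranges of 1387347_at and 1397830_at were 0.84 and 0.90, and without tumour 3 they were 1.26 and 0.91.

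**Figure D3:**
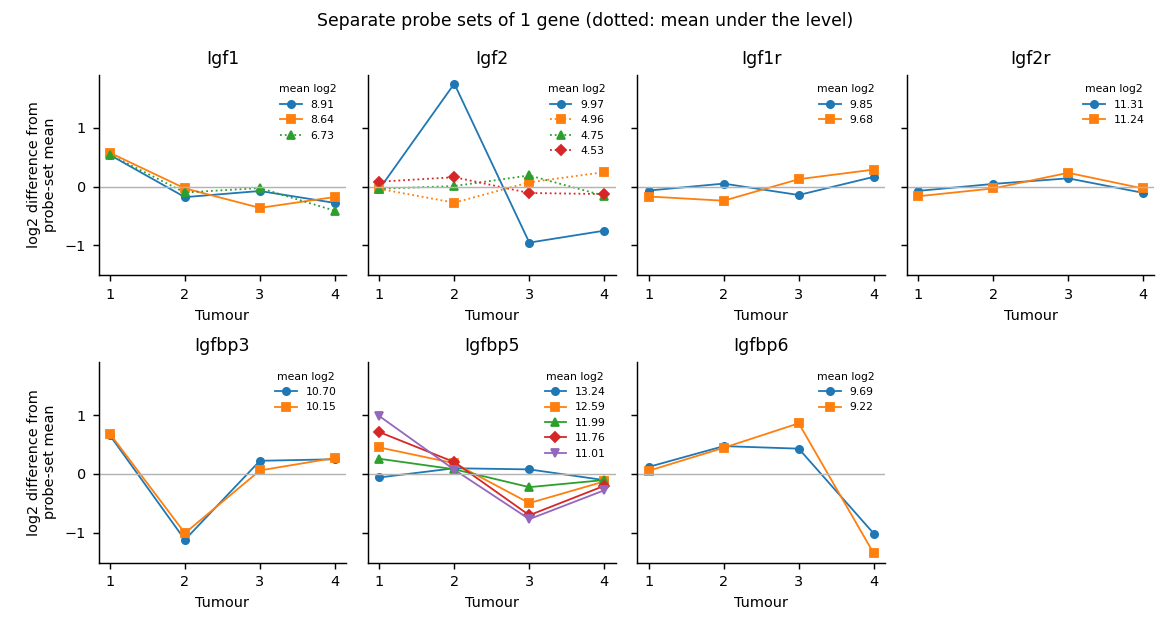
Difference of each tumour from the probe set's own mean, in log2, for the 7 genes with several probe sets. Each line is 1 probe set, named by its mean log2 level, and dotted lines have a mean under the level of 7.81. Both Igfbp3 lines dip in tumour 2, both Igfbp6 lines are lowest in tumour 4, and the 3 Igf1 lines peak in tumour 1. Of the 4 Igf2 lines, 2 are highest in tumour 2, and 1 of these is dotted and highest by only 0.08.

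Igfbp2 and Igfbp4 varied by less than 2-fold, each on 1 probe set. Igfbp2, a carrier of both ligands, measured 13.15, 13.09, 12.70 and 13.03 (range 0.44), with tumour 3 lowest. It lies above 99.5% of probe sets, and quantile normalization raised its range to 0.89. Igfbp2 and Igfbp5 are neighbours in the GRCr8 annotation, and tumour 3 was lowest for Igfbp2 and for 4 of the 5 Igfbp5 probe sets. Igfbp4, which inhibits IGF action until it is cleaved, measured 12.14, 11.71, 12.10 and 11.40 (range 0.74), with tumour 4 lowest. Igfbp1, the neighbour of Igfbp3 and a liver-derived binding protein, was under the level throughout (4.54 to 4.83).

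For genes with at least 2 probe sets above the level, the brightest pair gave a measure of error between probes, though not between arrays. The same tumour was highest on both in 4 of 6 genes of the axis (Igf1, Igf1r, Igf2r and Igfbp3) and in 49.3% of 2330 genes. The same tumour was lowest on both in 2 of 6 (Igfbp3 and Igfbp6) and in 51.3% of those genes. Of the 4 genes with a 2-fold range, 2 had a second probe set above the level, and in both it gave a 2-fold range with the same lowest tumour.

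By tumour, the brightest probe set was highest in tumour 1 for 5 of 10 genes (Igf1, Igfbp2, Igfbp3, Igfbp4 and Igfbp7), against 20.8% of all genes. For Igfbp2 and Igfbp4, each with 1 probe set, tumour 1 was highest by only 0.06 and 0.04. None of the 10 was lowest there, against 44.0% of all genes. Tumour 4 was lowest for 6 of 10 (Igf1, Igf2r, Igfbp4, Igfbp5, Igfbp6 and Igfbp7), against 30.6%. For Igf2r and Igfbp5 no other probe set was lowest in tumour 4. These shares move with the scaling, since the median gene lay at -0.13, 0.10, 0.11 and -0.08 from the mean of the other tumours in tumours 1 to 4. With values as deposited, 5 of 10 were highest in tumour 1 against 28.0% of all genes, and 5 of 10 lowest in tumour 4 against 25.1%. After quantile normalization the counts were 6 of 10 against 28.0% and 4 of 10 against 25.5%.

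Cell type markers differed between the tumours as well. The epithelial markers Krt8, Krt18, Krt19, Epcam and Cdh1 were at 11.43 to 13.76 in all 4, well above the level. They are 5 of the 14 luminal markers listed. Of the others, Foxa1 was under the level in all 4 tumours (4.43 to 6.67). In tumour 1 Krt7 was at 9.42 and Cldn3 at 9.15. Fibroblast and matrix genes were lowest in tumour 4 in 13 of 15 expressed members, against 30.6% of all genes above the level. Their median difference from the other tumours was -1.18. Their summed signal was 25546 there and 53432 to 67176 in the others. Igfbp4, Igfbp6 and Igfbp7 were lowest in the same tumour under every scaling tried. The brightest probe sets of Igf1, Igf2r and Igfbp5 were lowest there too, by 0.10, 0.03 and 0.05. Each of them was lowest there on 4 of 5 scales. The dimmest Igf1 probe set was also lowest in tumour 4, but the second Igf1 probe set and the other probe sets of Igf2r and Igfbp5 were not. Macrophage genes were highest in tumour 1 in 9 of 11 expressed members, against 20.8% of all genes above the level. They had a median of 0.93 there and a summed signal of 26845 against 12954 to 17244. Fibroblast genes had a median of 0.55 in tumour 1 and of 0.67 in tumour 3. Fap of the fibroblast list and Cd163 and Itgam of the macrophage list were under the level on average. Igf1, Igfbp2, Igfbp3, Igfbp4 and Igfbp7 were highest in tumour 1, Igfbp2 and Igfbp4 by only 0.06 and 0.04. Endothelial genes had a median of -0.54 in tumour 4, but the list was split there. Of its 7 expressed members, 4 were lowest in tumour 4, whereas Vwf and Eng were highest there, by 0.12 and 0.01. In tumour 2 the endothelial median was -0.41. Pecam1 and Cldn5 of the endothelial list were under the level on average. Luminal genes had a median of -0.95 in tumour 1. The part of cell composition in the values of the axis was not tested, and in bulk tissue fewer cells of a type and less RNA per cell cannot be told apart.

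**Figure D4:**
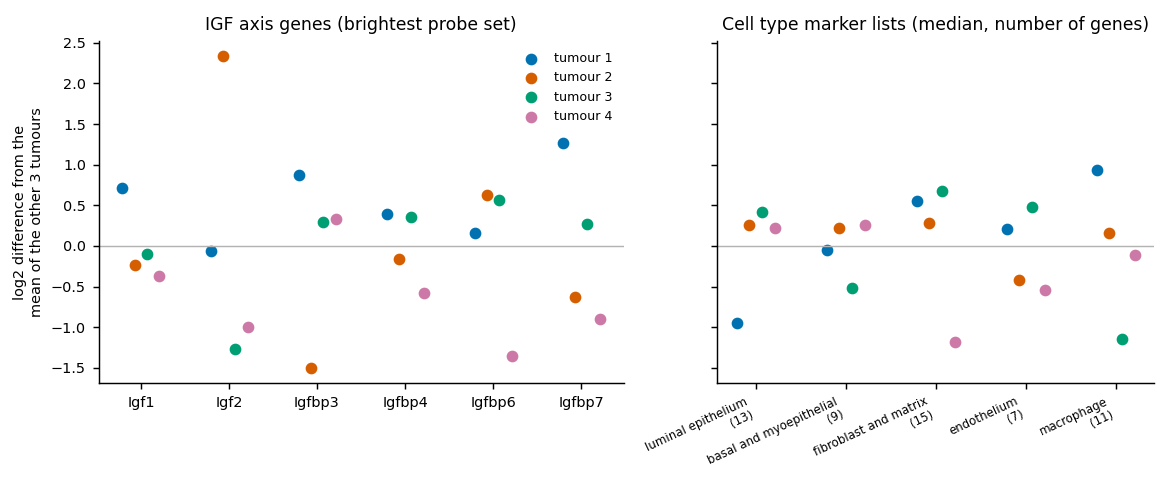
Left, difference of each tumour from the mean of the other 3, in log2, for 6 IGF axis genes by their brightest probe set. Right, the median of the same difference over cell type marker lists, with the number of expressed genes in brackets; colours are tumours. Tumour 4 is lowest for Igfbp6 and Igfbp7 on the left and for the fibroblast list, at -1.18, on the right.

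The genes most like each variable member were found by the smallest root mean square distance between profiles centred on their own mean, over 4 tumours and 9402 genes. For Igfbp7 they were Tmem100 (0.11), Pdgfrb (0.13) and Adcy2 (0.13). Pdgfrb, the platelet-derived growth factor receptor of fibroblasts and pericytes, measured 9.62, 8.05, 8.85 and 7.67. For Igfbp6 they were Folr1 (0.05), Vwa8 (0.10) and Ccdc61 (0.10), and Folr1, a folate receptor, measured 8.18, 8.65, 8.58 and 7.10. For Igfbp3 they were Cyp4f17 (0.13), Prkrip1 (0.19) and Ankh (0.20). The genes nearest to Igf2 lay at larger distances, Spp1 (0.32), Hpgd (0.44) and Car3 (0.49). The distance is not scaled to the range of a member, which was widest for Igf2, so distances of different members are not comparable. Spp1, which encodes osteopontin, measured 9.75, 11.24, 8.37 and 9.41. With 4 tumours such likeness is a description only.

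Around the 10 genes, 67 further genes of the pathway were listed, of which 61 had a probe set and 38 were above the level. A 2-fold range was found in 9 of these 38 (23.7%), against 13.0% of all genes, and the median range of the 38 was 0.63 log2. Without tumour 1 the count was 4. Of the 23 genes under the level, 14 had a 2-fold range, against 36.5% of 4814 such genes on the array. In the phosphatidylinositol 3-kinase, AKT and mTOR group 14 of 15 genes had ranges of 0.13 to 0.93, near the share of all genes with so small a range, with Mtor at 9.36 to 9.57 and Akt1 at 11.38, 12.06, 12.31 and 11.81. The exception was Pik3r1, the regulatory subunit of phosphatidylinositol 3-kinase, at 10.48, 10.37, 10.31 and 8.34 in tumours 1 to 4. All 5 expressed genes of growth hormone signalling, including Stat5a and Jak2, varied by less than 2-fold (0.47 to 0.84), as most genes did, and their median range of 0.65 was larger than the 0.51 of all genes.

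Among receptor-proximal genes, Insr, the insulin receptor, measured 8.59, 8.69, 8.37 and 8.31. Irs2, an adaptor of the insulin and IGF-I receptors, was highest in tumour 1 (11.11, 10.25, 10.40 and 10.63), while Irs1 was under the level (6.22 to 6.61). The adaptors Grb10 and Grb14, which restrain insulin and IGF receptors, had a 2-fold range. Grb14 was low in tumour 1 (8.11, 9.85, 9.72 and 9.58), and Grb10 was low in tumour 2 (7.63, 6.84, 8.75 and 8.42), and its values in tumours 1 and 2 were under the level. Of its other 2 probe sets, both under the level on average, 1 was lowest in tumour 2 and 1 highest there. Stc1, an inhibitor of a protease that cleaves Igfbp4, measured 8.59, 9.70, 9.93 and 8.99, and its other 2 probe sets shared the highest and the lowest tumour. Htra1, a protease that can cleave binding proteins, varied by 0.60.

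Proteins with an IGFBP-type domain had the largest median range of the pathway groups, 2.66, over only 3 expressed genes of 7. All 3 expressed members had a 2-fold range, against 13.0% of all genes, each with a different lowest tumour. Of the members under the level, Ccn5 and Esm1 had ranges of 2.33 and 2.13, and Ccn1 and Ccn4 ranges of 0.24 and 0.97. Ccn2, connective tissue growth factor, measured 12.35, 10.65, 11.58 and 11.42, highest in tumour 1 and lowest in tumour 2 as Igfbp3 was. Ccn3 measured 9.31, 8.70, 7.79 and 10.69, and Kazald1 9.15, 8.05, 7.59 and 6.49. Of the 3 imprinted genes above the level, 2 had a 2-fold range, H19 and Mest, against 13.0% of all genes. Mest was at 8.81, 7.39, 8.83 and 6.62. Of the imprinted genes under the level, Dlk1, Plagl1 and Ndn had ranges of 1.79, 5.54 and 1.13, and Meg3 one of 0.68. The lower values of Mest, Kazald1 and Ccn3 were under the level, so their differences are uncertain in size. Igf2bp2, whose protein binds Igf2 mRNA, varied by 0.95.

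**Figure D5:**
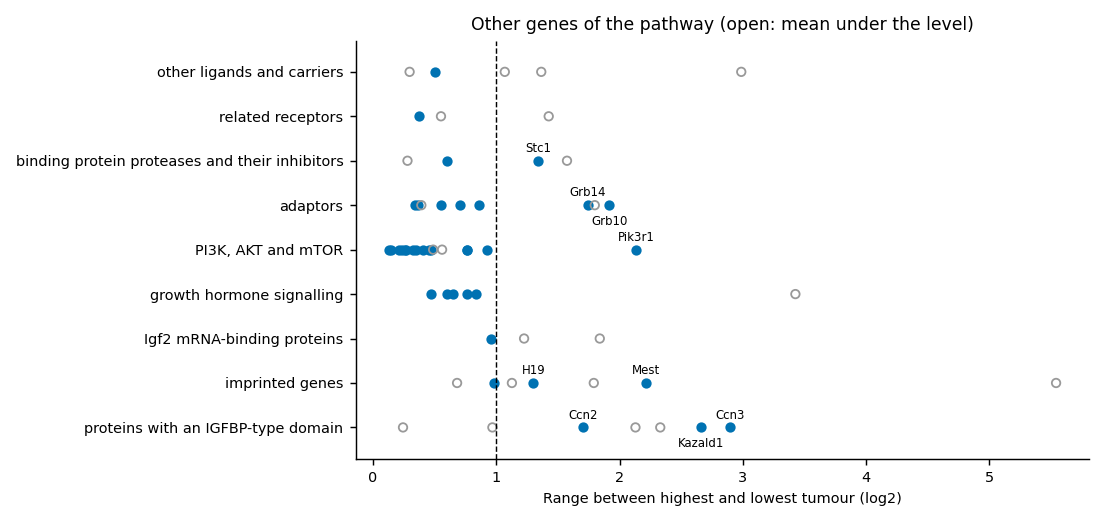
Range between the highest and the lowest tumour, in log2, for 61 further pathway genes by group (vertical axis). Filled points are genes with a mean above the level, open points are dimmer, the dashed line marks 1 log2, and genes above the level past it are named. Filled points of the phosphatidylinositol 3-kinase group lie between 0.13 and 0.93 except Pik3r1 at 2.13.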

How the data were processed

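Total RNA (8 µg) of 4 tumours was labelled from an oligo-dT primer and hybridised to 1 array each, per the labels' protocols. The deposited table holds linear intensity values of the authors for 31099 probe sets; no source used here names the software or the scaling. The mean trimmed by 2% at each end was 500.1 on each array, the median signal 201.8 to 221.9, and no 2 arrays were identical. Values became log2(value + 16), shifted per array by -0.07 to 0.06 to a common median. Probe sets naming 1 gene (20826) were used, 436 naming several were left out, and 23 of 23 IGF probe sets kept their symbol in RefSeq GRCr8. Scripts used Python 3.11.15, numpy 2.4.6 and pandas 2.3.3, and range counts were tested on simulated data. With 1 group there was no test between groups; Dixon's gap ratio was used only to pick values for a closer look. Alternatives were pseudocounts of 1 and 64, no shift, quantile normalization, leaving out each tumour, averaged probe sets and other level filters. The naming rule covered pathway genes with a 2-fold range above the level and Insr, Irs1, Irs2 and H19, and any other pathway gene named is an example of its group or a neighbour chosen after its values were seen; the 3 nearest genes were named for each member with a 2-fold range. Members and lists were chosen with earlier results of these data known.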

Additional observations from a re-analysis of the deposited data

Results flagged for a closer look

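Of 35 probe sets of the IGF axis and the named pathway genes, 2 had a tumour whose gap to the nearest other tumour, divided by the whole range, passed Dixon's 95% critical value for 4 samples. Chance flags about 1 in 20 groups, so 2 of 35 is near what chance gives, and both belong to genes named for their range over the same 4 tumours, so the ratios support nothing beyond the values. Pik3r1 reached 0.921, with tumour 4 at 8.34 log2 and the others at 10.31 to 10.48. Grb14 reached 0.840, with tumour 1 at 8.11 and the others at 9.58 to 9.85. Each gene has 1 probe set. None of the 23 probe sets of the 10 genes passed, and H19 (0.788, tumour 2) was under the value.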

How the results depend on the processing

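A 2-fold range was counted for 4 genes with the settings as described, under both pseudocounts, without the shift and after quantile normalization, and the count was 3 with averaged probe sets. The count with a 4-fold range fell from 1 to 0 with averaged probe sets, which combine the bright and the dim Igf2 probe sets. Leaving out each tumour in turn gave 2 to 4 genes with a 2-fold range, 0 to 1 with a 4-fold range and 5 to 7 probe sets with a 2-fold range (8 with all tumours). The median SD was then 0.24 to 0.41, the median range per probe set 0.48 to 0.74, the median deviation of the extreme tumour 0.41 to 0.67, and 2 to 3 Igf2 probe sets were highest in 1 tumour. Without the shift that last number was 1. The pathway count was 4 to 7 without a tumour, lowest without tumour 1, 23 with no level filter and 2 with the filter at the 75th percentile, which test more and fewer genes. Of 180 values of single genes and probe sets under the 4 other scales, 13 moved by more than 1 SD. Many of these values are ranges, which cannot change sign. The others are differences of the most extreme tumour of each gene, and 0 of them changed sign. Dim probe sets, such as 3 of Igf2, and the brightest, such as 1 of Igfbp5, limit what can be measured. No paired analysis was possible because there is 1 group.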

Other observations

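Among the pathway genes under the level on average, 3 are given here, chosen after their values were seen. Plagl1, an imprinted zinc finger gene, measured 9.89, 4.35, 5.34 and 9.08 in tumours 1 to 4, a range of 5.54 log2, above the level in tumours 1 and 4 and far under it in tumours 2 and 3. Socs2, a feedback inhibitor of growth hormone signalling, measured 6.83, 7.73, 8.08 and 4.65 and was above the level only in tumour 3. Igfals, which encodes the acid-labile subunit that holds IGF complexes in serum, measured 5.29, 7.66, 5.28 and 4.68, under the level in all 4 tumours and highest in tumour 2, where Igf2 was highest. Each of these genes has 1 probe set, and the size of differences among dim values is uncertain.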
